A study of Mus musculus with 12 samples.

Results

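Splicing of muscle transcripts is set by a small number of RNA-binding proteins, and the genes of 10 of them were followed here across a series of mouse models of facioscapulohumeral muscular dystrophy (FSHD), a disease in which the transcription factor DUX4 is misexpressed in skeletal muscle. The members were taken by gene symbol from the count table and are Mbnl1, Mbnl2, Mbnl3, Celf1, Celf2, Rbfox1, Rbfox2, Ptbp1, Rbm20 and Rbm24, which make up 10 of the 37748 genes listed. All 10 were among the 16679 genes with enough counts to be tested. Poly(A) RNA of the gastrocnemius was sequenced from 12 mice, with 4 groups of 3 and 1 library per mouse.

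The control mice were ACTA1-MCM/+ and carried the MerCreMer transgene, a tamoxifen-dependent Cre recombinase driven in skeletal muscle by the ACTA1 promoter. The FLExD mice were FLExDUX4/+ and carried the conditional DUX4 transgene without Cre. Both groups are labelled as given no tamoxifen (TMX). The FLExD samples also carry the description mild pathology, although their labelled genotype has no Cre, and they are grouped here by genotype. Both induced models, moderate and severe, were bi-transgenic (FLExDUX4/+ and MCM/+). The moderate model was injected intraperitoneally with TMX at 5 mg/kg in 1 injection and the severe model at 10 mg/kg in 2 injections on consecutive days. Muscles of both models were collected on day 9, and mice of all groups were 13 weeks old. With controls labelled in this way, the drug and the induction of DUX4 cannot be told apart in these comparisons, while the paper lists ACTA1-MCM/+ mice given TMX as its controls for the models. DUX4 expression is described there as mosaic, so that not all nuclei of a muscle express it. The treatment label gives the name mild to the dose of 5 mg/kg, while the description of these mice and the study's methods call them moderate, which is the name used here. The level of DUX4 itself is not analysed here, nor is any library of bi-transgenic mice without TMX, which the paper calls the mild model.

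MBNL, CELF, RBFOX, PTB and RBM proteins bind short motifs in pre-mRNA and promote or block the use of nearby exons. During postnatal development of muscle, MBNL activity rises while CELF activity falls, and many transcripts for contraction and calcium handling pass from fetal to adult isoforms. In myotonic dystrophy, expanded repeat RNA sequesters MBNL proteins, and fetal isoforms return. RBFOX proteins promote muscle exons, PTB represses many tissue-specific exons in cells that are not muscle or neuron, RBM20 governs the splicing of titin, and RBM24 acts early in muscle and heart differentiation. The values below are totals per gene, so they give the level of each regulator, and neither the splicing of its targets nor its own isoforms was measured by them.

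Levels are given as CPM, the reads of a gene per total reads after that total is adjusted with a TMM factor. Total counts ranged from 23796902 to 29136403 per mouse, and 3 counts are worth 0.0676 to 0.155 CPM. TMM factors ranged from 0.706 to 0.76 in the control and FLExD mice, from 1.06 to 1.13 in the moderate mice and from 1.69 to 1.87 in the severe mice, so the scale between groups depends on this step. Over all tested genes, the log2 fold change from control had a median of 0.04 (moderate) and 0.08 (severe) with TMM, of 0.65 and 1.39 with library size alone, and of 0.29 and 0.79 with log2(TPM + 1). Where the direction of a regulator against control turns with the scaling, a turned value stands beside it. The 12 libraries carried the fast-fiber transcripts of gastrocnemius, with a summed level of 6 markers of mature fast fibers between 114178 and 158556 CPM in controls. They held little of the cardiac markers, which summed to between 0.427 and 1.98 CPM in controls. Over all groups these sums ran from 0.0943 CPM in a severe mouse to 2.71 CPM in a FLExD mouse.

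Markers of several cell types differed between the models and controls. The 6 fast-fiber markers summed to between 52084 and 63434 CPM in the moderate mice and between 7821 and 13991 CPM in the severe mice, and 5 and 6 of the 6 passed the test as lower. All 3 markers of regenerating fibers were higher in both models and summed to between 22.8 and 27.2 CPM in controls, 338 and 609 CPM in moderate mice and 1230 and 1758 CPM in severe mice. Of 4 satellite cell and myoblast markers, 3 were higher in moderate mice and 4 in severe mice, with sums of 9.74 to 10.8, 32.9 to 48 and 103 to 141 CPM in the control, moderate and severe mice. All 6 leukocyte and macrophage markers were higher in both models, with sums of 59.6 to 74.2, 344 to 437 and 750 to 857 CPM, and both markers of cycling cells were higher, with sums of 1.14 to 2.75, 58 to 70.1 and 184 to 235 CPM. None of the markers of these 5 lists was at 0 in any group mean. Of 4 fibroblast markers, 2 were higher in moderate mice, and 2 were higher and 1 lower in severe mice, with sums of 604 to 1513, 2240 to 2370 and 3773 to 4899 CPM in the control, moderate and severe mice. Of 3 endothelial markers, 1 was lower in moderate mice and 3 in severe mice, with sums of 116 to 132, 73.9 to 96.4 and 50.5 to 59.9 CPM. Both tested markers of nerve and Schwann cells were lower in severe mice, where the 4 listed markers summed to between 1.71 and 3.61 CPM, against 6.22 to 13.3 CPM in controls. Of 3 slow-fiber markers, 0 were called in moderate mice and 1, Myh7, was lower in severe mice. Of 3 smooth muscle markers, 2 were higher in moderate mice, and 1 was higher and 2 were lower in severe mice. With library size alone, 4 fibroblast markers were higher in severe mice, 1 endothelial marker was lower and 1 higher, and neither nerve marker was called. On that scale 1 slow-fiber marker was higher and 1 lower in severe mice, and 1 smooth muscle marker was higher and 0 lower. The part of these shifts in the changes of the splicing regulators was not tested, and in whole muscle fewer cells of a type cannot be told apart from less RNA per cell.

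Between FLExD mice and controls, none of the 10 regulators was called in either direction, a call being an edgeR adjusted p under 0.05 with a log2 fold change of at least 0.5 in size. Of all tested genes, 0% were called higher and 0.006% lower, and 638 genes, but none of the regulators, had an unadjusted p under 0.05. DESeq2 and limma on log2(TPM + 1) also called none of the regulators. The log2 fold changes ran from -0.36 for Mbnl3 to 0.08 for Rbm24. Mbnl3 was at 0.386 to 0.595 CPM in FLExD mice and 0.664 to 0.674 CPM in controls, on 8 to 14 counts per mouse. The share of all tested genes without overlap was not computed for FLExD mice against controls, so this gap is given as values only.

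In the moderate model, 2 of the regulators were called higher (Mbnl3 and Ptbp1) and 3 lower (Mbnl1, Rbfox1 and Rbm24), beside 24.4% of all tested genes called higher and 17.0% called lower. In the severe model, the same 2 were called higher and 4 were called lower, Rbm20 having joined the other three, beside 32.9% and 27.9% of all genes. The values of moderate mice lay entirely above those of controls for 3 regulators and entirely below for 4, and those of severe mice for 3 and 5, where 61.0% and 75.0% of all tested genes did not overlap. Over the 10 regulators, log2 fold changes had a median of -0.09 for moderate mice and -0.26 for severe mice, beside 0.04 and 0.08 over all genes. Between the severe and the moderate model, 3 regulators were called higher and 5 lower, with 17.6% of all genes called higher, 18.8% called lower and 61.3% not overlapping. Scaled by library size alone, the members called higher and lower were 5 and 2 (moderate against control), 6 and 2 (severe against control) and 5 and 0 (severe against moderate). On that scale 52.5% of all tested genes were called higher and 4.51% lower in the first comparison, 75.4% and 6.42% in the next, and 57.8% and 4.93% in the last.

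**Figure D1:**
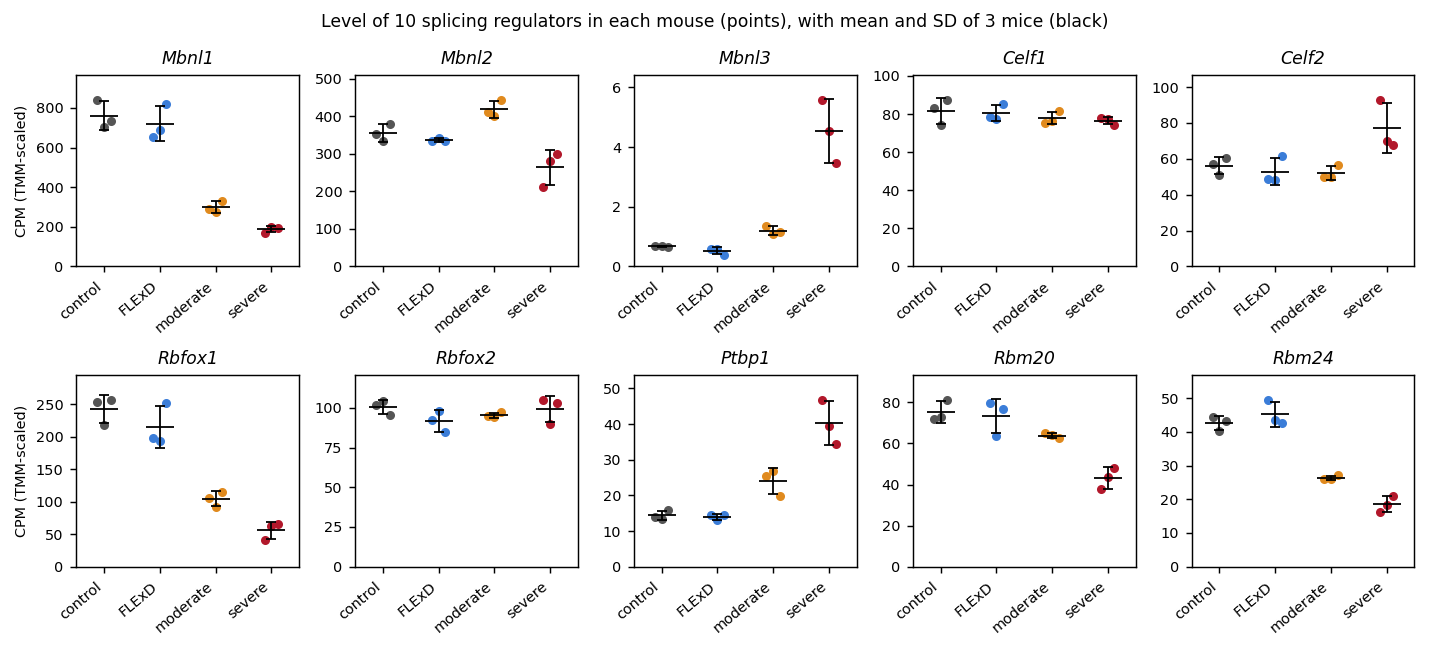
CPM of each regulator (vertical axes, from 0) in each of 12 mice by group; points are mice, black lines the mean and SD of 3 mice. Mbnl1 and Rbfox1 lie lower in both models than in controls (Mbnl1 means 761, 299 and 187 CPM in control, moderate and severe mice), Ptbp1 and Mbnl3 lie higher, and Celf1 and Rbfox2 stay between 74.3 and 105 CPM.

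Mbnl1 and Rbfox1, which fell, and Ptbp1, which rose, kept their direction against control under all 5 scalings and tests plotted for the severe model. So did Mbnl3, whose window holds no searched motif before the start. Celf2 also lay above 0 under all 5, from 0.43 to 1.82, but edgeR with TMM did not call it, and its windows are not shown. For the first 3 genes the 130 bases before a RefSeq transcript start (GRCm38.p6, plus strand) that holds a searched motif are shown, with the matches to an E-box (CANNTG, the site of MyoD-type and other helix-loop-helix factors) or a TATA box (TATAAA, either strand) in capitals.
Mbnl1 chr3:60472700-60472829: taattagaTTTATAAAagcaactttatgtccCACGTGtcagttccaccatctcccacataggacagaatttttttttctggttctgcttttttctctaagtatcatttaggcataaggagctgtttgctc
Rbfox1 chr16:7069705-7069834: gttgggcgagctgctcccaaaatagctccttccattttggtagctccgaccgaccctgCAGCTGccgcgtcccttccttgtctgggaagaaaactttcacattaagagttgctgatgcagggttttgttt
Ptbp1 chr10:79854302-79854431: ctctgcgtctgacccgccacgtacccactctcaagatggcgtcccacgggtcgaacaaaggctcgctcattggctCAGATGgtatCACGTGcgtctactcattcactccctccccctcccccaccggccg
The Mbnl1 window, the first of 2 for this gene, lies directly before the annotated gene and holds a CACGTG at position -99 (the base before the start being -1) and 2 overlapping TATAAA matches, 1 on each strand. The Rbfox1 window belongs to the second of its 2 starts, inside the gene, and holds the E-box form CAGCTG at position -72 from that start. The Ptbp1 window holds CAGATG at -55 and CACGTG at -45. The other window of Mbnl1 and the other window of Rbfox1 hold no match to any searched motif. Which start is used in these muscles was not measured.

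A RefSeq promoter window, from 250 bases before to 50 after the start, was matched for 8 of the 10 regulators, in 14 windows, and Rbfox2 and Rbm20 were not matched. These letter matches are common: among 32851 promoters of the same length, 72.3% hold CANNTG, 16.3% its form CAGCTG, which CANNTG includes, and 13.6% TATAAA. The MCAT element CATTCC of muscle promoters was found in 14.7% of all promoters and, among the regulators, in 1 window of Celf2. A DUX4-like motif was found in 1.03% of all promoters and in none of the 14 windows.

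Mbnl1 (chromosome 3, 60472830 to 60629750, plus strand, GRCm38) was per length the most abundant of the regulators in control muscle, and its transcripts fell in both models. Its level was 842, 705 and 736 CPM in the controls, 652, 690 and 820 in FLExD mice, 292, 273 and 332 in moderate mice and 170, 197 and 194 in severe mice. The control and FLExD mice overlapped, the moderate mice lay below both, and the severe mice lay below the moderate. Compared with control, Mbnl1 was 2.55-fold lower in the moderate model (log2 fold change -1.35, SE 0.13, edgeR adjusted p = 8.9e-07) and 4.07-fold lower in the severe model (log2 fold change -2.03, SE 0.13, edgeR adjusted p = 5.8e-09). It was lower against control with every scaling tried, at -0.74 and -0.72 with library size alone. The further difference between severe and moderate mice, -0.68 (SE 0.13, edgeR adjusted p = 5.1e-04), depended on the scaling, with 0.02 under library size alone and 0.01 under log2(TPM + 1).

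Mbnl2 (chromosome 14, 120275669 to 120431697, plus strand) encodes the paralog that shares most of the targets of MBNL1, and it did not follow Mbnl1. It was measured at 353, 333 and 380 CPM in controls, 333, 343 and 334 in FLExD mice, 412, 400 and 444 in moderate mice and 211, 281 and 299 in severe mice. The moderate mice thus all lay above the controls and the severe mice all below. Neither difference was called against control, the log2 fold change being 0.24 for moderate mice (95% confidence interval -0.03 to 0.50, edgeR adjusted p = 0.121) and -0.43 for severe mice (-0.69 to -0.16, edgeR adjusted p = 0.0063, under the fold threshold). Scaled by library size alone, both were called higher, at 0.84 and 0.87. Severe and moderate mice differed by -0.67 (SE 0.12, edgeR adjusted p = 5.1e-04), which became 0.02 with library size alone.

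Mbnl3 (chromosome X, 51117269 to 51206532, minus strand), the MBNL paralog known from placenta, regenerating muscle and dividing myoblasts, was barely present in control muscle. In TMM-scaled CPM it rose in both models. It had 13, 14 and 14 counts in controls, 12, 12 and 8 in FLExD mice, 43, 32 and 35 in moderate mice and 248, 192 and 143 in severe mice. In CPM, the controls lay between 0.664 and 0.674, the moderate mice between 1.1 and 1.36 and the severe mice between 3.45 and 5.59, with no overlap. In TPM, the moderate mice (0.45 to 0.6) overlapped the controls (0.43 to 0.5), and the severe mice (1.45 to 2.5) lay above both. Mbnl3 was 1.79-fold higher in the moderate model (log2 fold change 0.84, SE 0.26, edgeR adjusted p = 0.0152) and 6.72-fold higher in the severe model (2.75, SE 0.24, edgeR adjusted p = 1.2e-07). Without moderate mouse 1236 the moderate difference was 0.74 and no longer called (edgeR adjusted p = 0.0557). In both models it remained the least abundant of the 10 regulators per length.

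The balance within the MBNL family can be read inside each mouse, where the scaling between libraries cancels. In TPM, which are per length, the ratio of Mbnl2 to Mbnl1 was 0.507, 0.57 and 0.633 in controls, 0.596, 0.629 and 0.501 in FLExD mice, 1.65, 1.72 and 1.64 in moderate mice and 1.45, 1.73 and 1.82 in severe mice. Mbnl1 was thus the major MBNL transcript in all 6 uninduced mice and Mbnl2 in all 6 induced mice. The ratio was 2.94-fold higher in the moderate and 2.92-fold higher in the severe model than in control. A single exact permutation test over the 15400 ways of dividing 12 mice into 4 groups, which asks whether any groups differ and not which, gave p = 0.00649 (adjusted p = 0.00758 over 7 ratios). All paralog ratios tested here and below were chosen after the values had been seen, and the adjustment over 7 ratios does not correct for that choice. Mbnl1 made up 63.6% ± 2.56 (SD, n = 3) of MBNL TPM in controls, 37.4% ± 0.563 in moderate mice and 37.3% ± 2.66 in severe mice. A sum, unlike a ratio, depends on the scaling between libraries. The summed MBNL TPM was 259 ± 21.5 in controls, 252 ± 42.6 in FLExD, 243 ± 6.54 in moderate and 248 ± 37.6 in severe mice, a range of means smaller than the SD of the severe mice, on a scale where the median gene was higher by 0.29 and 0.79 in the models. In TMM-scaled CPM the sum was 1117 ± 78.4 in controls, 1057 ± 86.9 in FLExD, 719 ± 52.8 in moderate and 455 ± 60 in severe mice, with both models below the controls in all mice. Mbnl3 stayed a small share of MBNL TPM, 0.179% ± 0.0075 in controls, 0.218% ± 0.0332 in moderate and 0.846% ± 0.328 in severe mice. Its counts relative to Mbnl1 were 4.57-fold higher in the moderate and 26.9-fold higher in the severe model. The same exact permutation test over the 4 groups gave p = 3.9e-04 (adjusted p = 0.00136). This ratio was not computed in TPM, so its size holds for counts only, which are not per length. In TPM the level of Mbnl3 itself was 0.463 in controls, 0.53 in moderate and 2.03 in severe mice, a smaller rise than in its counts.

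**Figure D2:**
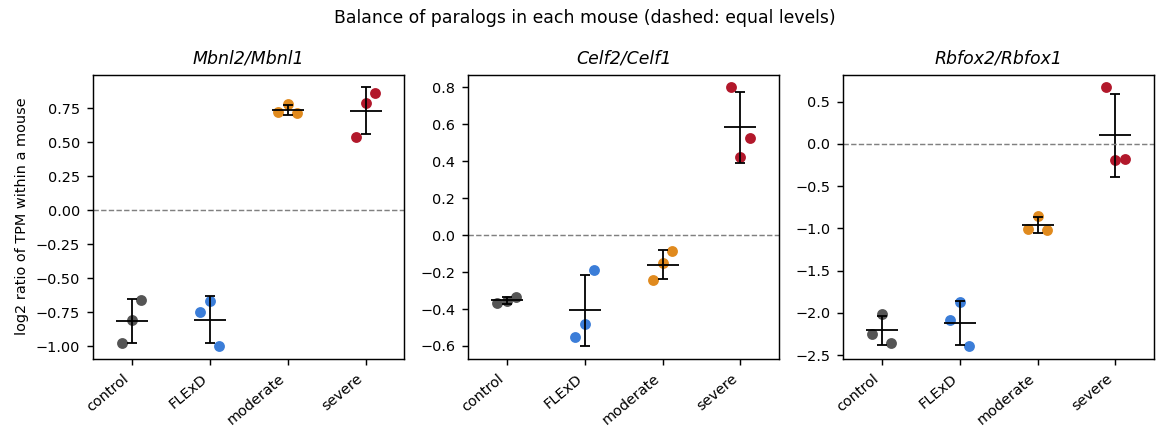
Log2 ratio of 2 paralogs in TPM within each mouse (vertical axes), by group; points are mice, black lines the mean and SD of 3 mice, and the dashed line marks equal levels. The Mbnl2 to Mbnl1 ratio crosses 1 in both models (1.67 and 1.66), the Celf2 to Celf1 ratio only in the severe model (1.5), and the Rbfox2 to Rbfox1 ratio climbs from 0.217 in control to 0.515 and 1.07.

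Celf1 (chromosome 2, 90940382 to 91019497, plus strand), which encodes the CELF protein that acts against MBNL on fetal exons and is raised in myotonic dystrophy, was not called in any comparison. Its values were 83.2, 74.3 and 87.6 CPM in controls, 78.3, 77.6 and 85.2 in FLExD mice, 75.5, 76.5 and 81.5 in moderate mice and 77.8, 77.3 and 74.3 in severe mice. All 4 groups overlapped. Its log2 fold change was -0.07 for moderate mice (95% confidence interval -0.25 to 0.11, edgeR adjusted p = 0.5) and -0.10 for severe mice (-0.27 to 0.08, edgeR adjusted p = 0.309), but with library size alone it was 0.54 and 1.21, each below the median of all genes on that scale.

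Celf2 (chromosome 2, 6539694 to 7509563, minus strand), the second CELF gene of muscle and one also expressed in leukocytes, was higher in the severe than in the moderate model. It was at 57.2, 50.8 and 60.5 CPM in controls, 48.6, 48.3 and 61.7 in FLExD mice, 49.8, 50 and 56.6 in moderate mice and 93, 70.1 and 67.9 in severe mice. The severe mice lay above all others, with mouse 1047 the highest. Severe exceeded moderate by a log2 fold change of 0.56 (SE 0.13, edgeR adjusted p = 0.00255), which was 0.41 and no longer called without severe mouse 1047. Against control, the severe model differed by 0.45 (SE 0.13, edgeR adjusted p = 0.00628), under the fold threshold. It was called higher at 1.77 with library size alone and at 1.82 with log2(TPM + 1), where the medians of all genes were 1.39 and 0.79. The moderate model differed by -0.11 (edgeR adjusted p = 0.512), which turned to 0.50 with library size alone and 0.49 with log2(TPM + 1). In TPM the ratio of Celf2 to Celf1 was 0.783 in controls, 0.754 in FLExD, 0.895 in moderate and 1.5 in severe mice (geometric means; exact permutation test over the 4 groups, p = 0.00247, adjusted p = 0.00432). In counts the same ratio was 0.688, 0.654, 0.669 and 0.997 (exact permutation p = 0.00961, adjusted p = 0.00961), so that the moderate ratio was 0.973-fold that of control in counts and 1.14-fold in TPM, and the severe ratio 1.45-fold and 1.91-fold.

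Rbfox1 (chromosome 16, 5885355 to 7411526, plus strand), the RBFOX gene of mature muscle, heart and neurons, fell in both models by about as much as Mbnl1. Its values were 253, 218 and 257 CPM in controls, 198, 194 and 252 in FLExD mice, 106, 92.5 and 115 in moderate mice and 40.9, 62.1 and 65.1 in severe mice. The control and FLExD mice overlapped, and the moderate and severe mice lay below them and apart from each other. Rbfox1 was 2.32-fold lower in the moderate model (log2 fold change -1.22, SE 0.16, edgeR adjusted p = 2.8e-05) and 4.33-fold lower in the severe model (-2.11, SE 0.17, edgeR adjusted p = 6.2e-08). It was also lower on library size alone, at -0.61 and -0.82. The difference of severe from moderate mice was -0.90 (SE 0.16, edgeR adjusted p = 4.7e-04), and -0.21 and not called with library size alone or log2(TPM + 1).

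Rbfox2 (chromosome 15, 77078990 to 77307004, minus strand), the widely expressed paralog, was not called in any comparison. It was at 102, 104 and 95.5 CPM in controls, 92.1, 98.2 and 84.7 in FLExD mice, 94.7, 93.9 and 97.1 in moderate mice and 105, 89.6 and 103 in severe mice, and the groups overlapped. Its log2 fold change was -0.08 for moderate mice (95% confidence interval -0.26 to 0.11, edgeR adjusted p = 0.487) and -0.01 for severe mice (-0.20 to 0.17, edgeR adjusted p = 0.889), and 0.53 and 1.29 with library size alone. Within a mouse, the ratio of Rbfox2 to Rbfox1 in TPM was 0.211, 0.247 and 0.196 in controls, 0.235, 0.274 and 0.191 in FLExD mice, 0.497, 0.556 and 0.494 in moderate mice and 1.59, 0.879 and 0.883 in severe mice. It was 2.37-fold higher in the moderate and 4.95-fold higher in the severe model than in control (exact permutation test for any difference among the 4 groups, p = 4.5e-04, adjusted p = 0.00136), and only in severe mouse 1047 did Rbfox2 exceed Rbfox1.

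Ptbp1 (chromosome 10, 79854427 to 79864771, plus strand), the PTB gene that is normally turned down as muscle and neurons differentiate, rose in both models. Its level was 13.9, 13.3 and 15.9 CPM in controls, 14.6, 13.1 and 14.4 in FLExD mice, 25.5, 26.9 and 19.9 in moderate mice and 46.8, 39.5 and 34.4 in severe mice. The moderate mice all lay above the controls and the severe mice above the moderate. Ptbp1 was 1.67-fold higher in the moderate model (log2 fold change 0.74, SE 0.13, edgeR adjusted p = 3.0e-04) and 2.8-fold higher in the severe model (1.49, SE 0.13, edgeR adjusted p = 1.6e-07), and severe exceeded moderate by 0.74 (SE 0.13, edgeR adjusted p = 2.7e-04). It was called higher in these 3 comparisons with each scaling and test tried, with fold changes against control of 1.35 and 2.80 on the log2 scale with library size alone. A gene on the opposite strand, E130317F20Rik, overlaps it with a mean of 2.64 CPM over the 12 mice. Reads of the 2 strands cannot be told apart because the strand setting is not given in the sources used here.

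Rbm20 (chromosome 19, 53677306 to 53867080, plus strand), whose protein represses titin exons, was lower in the severe model. It was at 71.7, 73 and 81.2 CPM in controls, 79.7, 63.7 and 76.6 in FLExD mice, 65, 64.1 and 62.4 in moderate mice and 37.6, 43.6 and 48 in severe mice. The severe mice lay below all others, and the moderate mice lay below the controls but not below the FLExD mice. The severe difference from control was a log2 fold change of -0.81 (SE 0.11, edgeR adjusted p = 8.3e-06), the moderate one -0.24 (SE 0.10, edgeR adjusted p = 0.0684). On library size alone these turned to 0.49 (severe) and 0.37 (moderate), under that scale's medians of 1.39 and 0.65 over all genes, and with log2(TPM + 1) to 0.45 and 0.26. The opposite-strand gene Gm16299 overlaps Rbm20 with a mean of 2.78 CPM over the 12 mice.

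Rbm24 (chromosome 13, 46418434 to 46431095, plus strand), which encodes a regulator of muscle exons in skeletal muscle and heart, was lower in both models. The values were 44.4, 40.2 and 43.3 CPM in controls, 49.5, 43.4 and 42.6 in FLExD mice, 26.1, 26 and 27.1 in moderate mice and 16.3, 18.2 and 21 in severe mice. The moderate mice lay below both uninduced groups and the severe mice below the moderate. Rbm24 was 1.62-fold lower in the moderate model (log2 fold change -0.69, SE 0.10, edgeR adjusted p = 3.2e-05) and 2.3-fold lower in the severe model (-1.20, SE 0.10, edgeR adjusted p = 5.6e-08). On library size alone these were -0.09 and 0.10, neither called, against medians of all genes of 0.65 and 1.39, so its fall holds relative to other genes and not per total count.

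**Figure D3:**
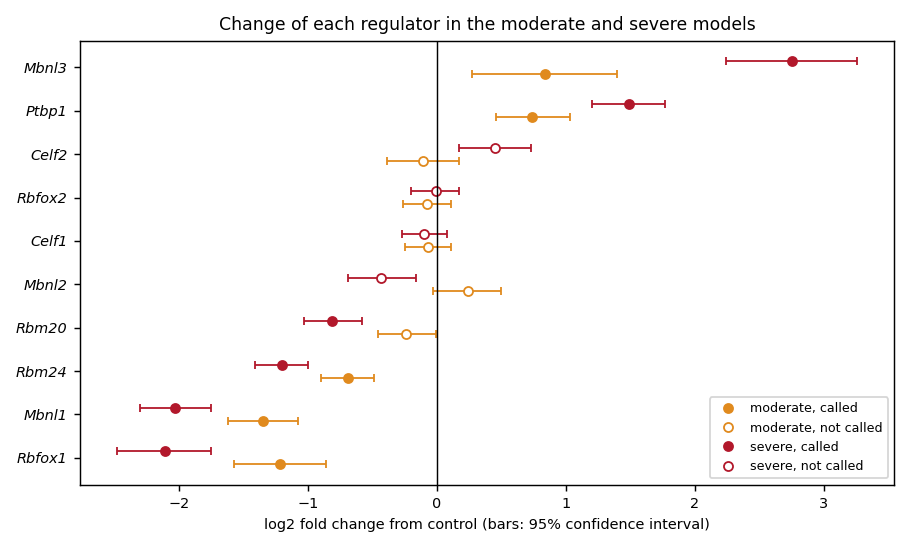
Log2 fold change from control (horizontal axis) of the 10 regulators in the moderate (orange) and severe (red) models, with 95% confidence intervals; filled points were called by edgeR and open points were not. Rbfox1 (-2.11) and Mbnl1 (-2.03) lie lowest and Mbnl3 (2.75) highest in the severe model, and the intervals of Celf1 and Rbfox2 include 0 in both models.

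The paralog families can be set side by side from these values. In the MBNL and RBFOX families the member that was more abundant in control muscle fell (Mbnl1 and Rbfox1), while Mbnl2 and Rbfox2 were not called lower against control, although Mbnl2 was called at -0.53 in the severe model when severe mouse 1079 was left out. The moderate ratio of Mbnl2 to Mbnl1 lay at the severe value (difference on the log2 scale -0.01), whereas the ratio of Rbfox2 to Rbfox1 rose by a further 1.06 and that of Celf2 to Celf1 by 0.74 on the log2 scale from moderate to severe. In counts the last of these was 0.58. These steps between models are given as values, with no test.

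Per length, the regulators stood in another order in the induced models than in controls. In control TPM, Mbnl1 (165 ± 15.9, SD, n = 3) was followed by Mbnl2 (93.6 ± 9.94), Rbfox1 (71.2 ± 6.76), Rbm24 (38.8 ± 2.37), Celf1 (16 ± 1.47), Rbfox2 (15.4 ± 0.346), Rbm20 (13.4 ± 1.27), Celf2 (12.5 ± 1.29), Ptbp1 (9.38 ± 0.942) and Mbnl3 (0.463 ± 0.0351). Celf1 overlapped Rbfox2 and Rbm20 overlapped Celf2, and the other neighbours did not overlap. In the FLExD mice the order was the same, with overlap between each pair of neighbours from Celf1 down to Ptbp1.

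In the moderate mice Mbnl2 (152 ± 4.46) stood above Mbnl1 (90.9 ± 2.68), and the ranks from Rbfox2 down to Rbm20 overlapped with their neighbours. In the severe mice Mbnl2 (154 ± 29.2) and Mbnl1 (91.8 ± 9.51) were followed by Ptbp1 (48.5 ± 10.3), which had ranked below all but Mbnl3 in controls, and then by Celf2 (47.2 ± 8.67), Rbfox2 (38.9 ± 3.79), Rbm24 (38.8 ± 2.62), Rbfox1 (36.8 ± 8.45) and Celf1 (31.3 ± 3.81), each overlapping the next. Rbm20 (18.6 ± 0.995) and Mbnl3 (2.03 ± 0.534) came last. Rbfox1, next after the 2 major MBNL genes in controls, thus lay among 6 regulators whose levels overlapped from each to the next.

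**Figure D4:**
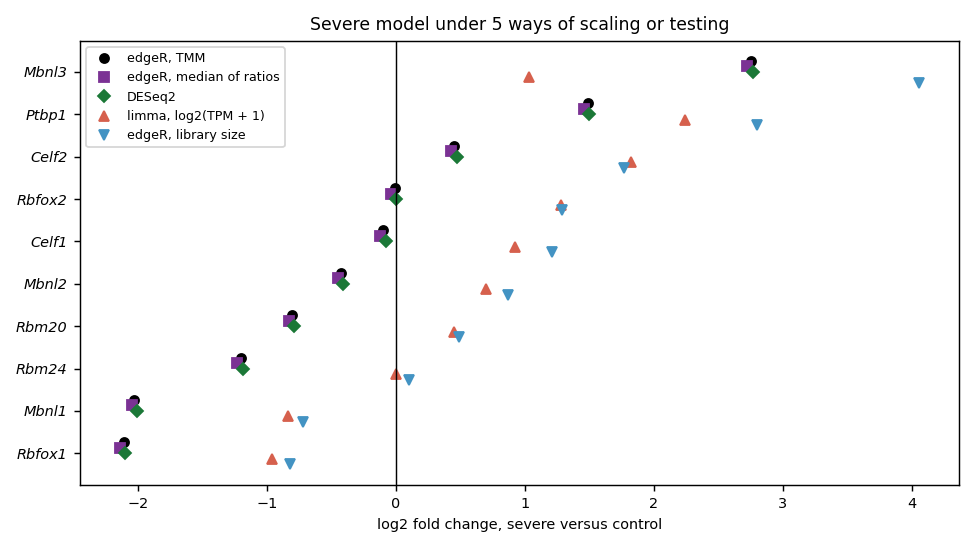
Log2 fold change of severe mice from control (horizontal axis) for the 10 regulators under 5 scalings or tests, 1 symbol each. The 3 methods that scale on the typical gene lie together, and library size and TPM lie to their right except for Mbnl3 in TPM. Rbfox1 and Mbnl1 lie below 0 under all 5, with Mbnl3, Ptbp1 and Celf2 above.

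The ratio of a gene's deposited count to its TPM gives the length that the authors' transcript estimates implied for it, which moves when the estimated mix of transcripts does. This measure was added after the values had been seen, and was centred on the median gene of each mouse. At an adjusted p under 0.05 with limma, 25.8% of 8710 genes differed in moderate mice and 50.5% in severe mice. In the severe model, Celf2 was shorter by this measure (log2 difference -0.32, SE 0.05, limma adjusted p = 0.0012), as was Rbfox2 (-0.21, SE 0.02, limma adjusted p = 7.8e-05), while Ptbp1 was longer (0.27, SE 0.04, limma adjusted p = 6.9e-04). Rbm20 (-0.15), Rbm24 (-0.07) and Celf1 (0.08) also passed, although the values of Celf1 overlapped between severe mice and controls. Mbnl1 (-0.04, limma adjusted p = 0.417), Mbnl2 (-0.01) and Rbfox1 (-0.02) did not pass, and Mbnl3 was too low for this measure. Thus 6 of the 9 measured regulators passed in the severe model and 3 in the moderate (Celf2, Rbfox2 and Rbm24).

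In the severe group, mouse 1047 lay farthest from the control mean for 8 of the 10 regulators, the exceptions being Celf1 and Rbfox2. It also had the lowest sum of fast-fiber markers of the severe mice (7821 CPM, against 13991 and 13266) and the highest sum of leukocyte markers (857 CPM, against 750 and 810) and of cycling-cell markers (235 CPM, against 195 and 184). Without this mouse, all 6 calls of severe against control remained, with 2 higher and 4 lower. The part of the marker differences in its regulator levels was not tested.

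Among 26 related RNA-binding protein genes, 20 were tested. In the moderate model 4 were called higher and 2 lower, and in the severe model 7 and 3. Their median log2 fold changes were -0.08 and 0.11, beside 0.04 and 0.08 over all tested genes. Of all tested genes, 24.4% rose and 17.0% fell by the same rule in moderate mice, and 32.9% and 27.9% in severe mice. The counts of relatives moved to 7 and 0 (moderate) and to 15 and 1 (severe) when library size alone was used. The all-gene shares then were 52.5% and 4.51% (moderate) and 75.4% and 6.42% (severe). The PTB paralog Ptbp3, known from blood cells, rose from 20.2 ± 1.69 CPM in controls to 37.7 ± 3.74 in moderate and 76.2 ± 8.83 in severe mice (severe log2 fold change 1.92, SE 0.10, edgeR adjusted p = 1.3e-09), whereas the neuronal Ptbp2 had a severe log2 fold change of 0.07 (edgeR adjusted p = 0.535).

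Other called relatives were mostly of low level. Celf4, a CELF gene of brain, was higher by 2.48 in the severe model from 0.197 CPM in controls, and Rbm47 by 2.29 from 1.21 CPM, both on the log2 scale. Msi1 was called higher in the severe model with means of 0.128 CPM in controls and 0.544 CPM in severe mice, but the control mean lay under the highest level that 3 counts are worth in these mice, and no fold is given. In the moderate model, Nova1, a neuronal splicing factor, was the relative with the greatest rise (1.41, from 6.26 to 16.7 CPM), followed by Celf4 (1.39) and Rbm47 (1.10). Rbm38, a cell-cycle and differentiation regulator present in muscle, went from 50.7 CPM in controls to 34 in moderate and 12.2 in severe mice. Its log2 fold changes were -0.58 and -2.05. With library size alone the moderate value was 0.03 and the severe value stayed negative (-0.75). Msi2 was lower by TMM in both models (-0.68 and -0.95), as was Rbpms in the severe model (-1.01), but with library size alone the severe values were 0.36 and 0.29.

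Among the remaining paralogs, Qk, which encodes the abundant splicing factor Quaking, was not called (log2 fold change -0.26 and -0.19), nor was Celf3 (-0.22 and 0.59). With library size alone the values were 0.34 and 1.11 for Qk and 0.38 and 1.89 for Celf3. Celf5, Celf6 and Rbfox3 were too low to be tested, with Rbfox3 at 0 counts in the 3 controls and at a mean of 0.0385 CPM in severe mice, under the 3-count level.

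The level of transcripts known as splicing targets of these regulators also changed, and 18 of 18 were tested. In the moderate model 5 were called higher and 11 lower (median log2 fold change -1.11), and in the severe model 2 and 13 (median -2.61). Beside these stand all-gene shares of 24.4% up and 17.0% down (moderate, median 0.04) and 32.9% and 27.9% (severe, median 0.08). Under library size alone the target counts were 6 and 9 for moderate mice and 7 and 11 for severe mice. On that scale 52.5% of all tested genes were up and 4.51% down in moderate mice, and 75.4% and 6.42% in severe mice. Tnnt2, the cardiac troponin T gene of fetal muscle and a classical MBNL and CELF target, rose from 1.34 ± 0.457 CPM in controls to 20.3 ± 7.82 in moderate and 87.6 ± 17.8 in severe mice (severe log2 fold change 6.04, SE 0.38, edgeR adjusted p = 1.0e-07). Actn1, a known PTB target, was higher by log2 fold changes of 1.34 and 2.63 in the moderate and severe models. Camk2d, a calcium-dependent kinase gene, was called higher in moderate mice (1.00) and had a log2 fold change of 0.22 in severe mice (edgeR adjusted p = 0.0993).

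Genes of contraction and excitation in adult fibers were among those that fell. The chloride channel gene Clcn1, whose missplicing causes myotonia in myotonic dystrophy, went from 132 ± 13.6 CPM in controls to 50.2 ± 9.07 in moderate and 8.65 ± 3.73 in severe mice (severe log2 fold change -3.94, SE 0.31, edgeR adjusted p = 4.2e-07). Tpm1, an alpha-tropomyosin gene, was lower by a severe log2 fold change of -4.06, and the calcium pump gene Atp2a1 by -3.65. In the moderate model the greatest falls were those of Tpm1 (-1.79), the calcium channel gene Cacna1s (-1.74) and Tpm2 (-1.68). These genes mark the mature fiber, whose marker sums fell in the same mice as given above, and the part of fiber content in their change was not tested. In the severe model the 6 fast-fiber markers had a median log2 fold change of -3.59, beside -2.03 for Mbnl1 and -2.11 for Rbfox1.

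**Figure D5:**
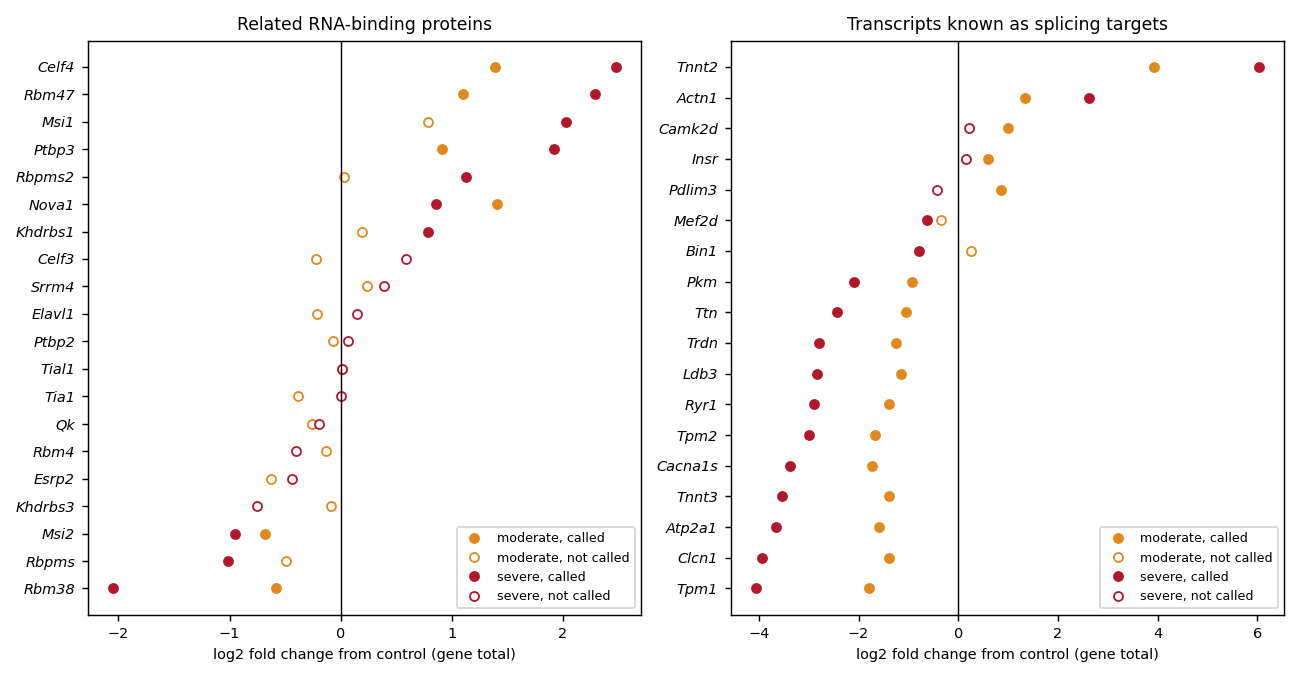
Log2 fold change from control (horizontal axes) of the tested related RNA-binding proteins (left, 20 genes) and known splicing target transcripts (right, 18 genes), moderate in orange and severe in red, filled where called. Rbm38 (-2.05) and Celf4 (2.48) end the left panel, Tpm1 (-4.06) and Tnnt2 (6.04) the right one, and most targets lie below 0.

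For 9 of the regulators the tested gene with the most similar profile is given, found as the smallest root mean square (RMS) difference of centred log2(CPM + 0.5) over the 12 mice. Rbfox1 was closest to the dystrophin gene Dmd (RMS 0.101), whose log2 fold changes were -1.10 and -2.01 in the moderate and severe models. Mbnl1 was closest to Zfp438 (RMS 0.0908, -1.40 and -2.16) and Ptbp1 to Lgals9 (0.0972, 0.89 and 1.51), the gene of a galectin. Mbnl3 was closest to 1190002N15Rik (0.162), Celf1 to Zhx3 (0.0351), Celf2 to the pseudogene Bambi-ps1 (0.0831, with log2 fold changes of -0.25 and 1.16), Rbfox2 to Sppl3 (0.0687), Rbm20 to BC005624 (0.0711) and Rbm24 to Zfp180 (0.0635). These likenesses are descriptions over mice that share their groups.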

How the data were processed

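Gastrocnemius RNA of 12 mice was sequenced as single reads after poly(A) selection. The authors mapped reads to a merged mm10 annotation with RSEM 1.2.4 calling Bowtie and then TopHat2 2.0.8b, and deposited expected counts, not normalized, and TPM, which sum to between 999994 and 1000004 per mouse and so hold no TMM factor. Expected counts were rounded and tested with edgeR 4.0.16 under R 4.3.3 with filterByExpr, TMM factors and the robust quasi-likelihood F-test, all 4 groups sharing 1 fit, with Benjamini-Hochberg adjustment over 16679 genes and a call at adjusted p under 0.05 and a log2 fold change of at least 0.5. CPM use TMM-adjusted library sizes, and CPM, log2 fold changes, ratios and percent shares were computed from the deposited values. The members and lists were chosen with earlier results of these data known, and the paralog ratios and implied lengths after seeing the values. The fits were tested on simulated data. Genes named are all members, the 3 called relatives and targets with the largest change in each direction per model, and fixed paralogs; a few others were named after their values were seen. The gene closest in profile to Mbnl2, is not reported here. The labels do not say whether the mice were littermates, so p-values measure the spread between these mice. Positions are from GENCODE M21 (GRCm38, the same assembly as mm10). RSEM divides reads shared between genes, so its counts need not be whole, and rounding moved a member's count by at most 1.013%. The part of a member's reads that was shared with other genes was not measured. Alternatives were DESeq2 1.42.0, library size alone, median-of-ratios factors, limma 3.58.1 on log2(TPM + 1), other filters and thresholds, 2-group fits and leaving out each mouse. Python 3.11.15 and matplotlib 3.10.9 drew the figures.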

Additional observations from a re-analysis of the deposited data

How the results depend on the processing

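No paired analysis was possible because no replicate number is shared between groups. Of 596 values under alternative settings, 536 kept their direction or remained uncalled, and 21 of these changed sign while uncalled under both settings. Scaling mattered most, since TMM factors differ between groups. With library size alone, members called higher were 5 in moderate against control, 6 in severe against control and 5 in severe against moderate, and those called lower were 2 in severe against control and 0 in severe against moderate. limma on log2(TPM + 1) called 6 higher and 2 lower in severe against control, and 5 higher and 0 lower in severe against moderate. At a log2 fold of at least 1, the moderate model had 0 called higher, and severe against moderate 1 higher and 0 lower. With at least 10 counts in every sample Mbnl3 was not tested and the moderate model had 1 called higher.

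Signs turned under library size alone and limma on log2(TPM + 1). Against control in the moderate model, Celf1 became 0.54 and Rbfox2 0.53 with library size alone. In the severe model, the values with library size alone and with limma were 0.87 and 0.70 for Mbnl2, 1.21 and 0.92 for Celf1, 1.29 and 1.28 for Rbfox2, and 0.49 and 0.45 for Rbm20, and Rbm24 was 0.10 with library size alone. Between severe and moderate they were 0.02 and 0.01 for Mbnl1, 0.02 and 0.00 for Mbnl2, 0.67 and 0.61 for Celf1, 0.12 and 0.19 for Rbm20, and 0.18 and 0.20 for Rbm24. The limma test on log2(TPM + 1) gave 0.06 for Mbnl3 in the moderate model, where its level is near the pseudocount of 1. Without a pseudocount its TPM overlapped too, at 0.43 to 0.5 in controls and 0.45 to 0.6 in moderate mice.

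Leaving out each mouse in turn, the count of members called higher in the moderate model was 1 to 2, and 1 without moderate mouse 1236. The count called lower in severe against moderate was 3 to 5, and 3 without severe mouse 1047, where Rbm20 (-0.48), Rbm24 (-0.43) and Celf2 (0.41) were under the fold threshold. Without moderate mouse 1331, Rbm24 was at -0.48. The count called higher in severe against moderate was 2 to 3. In severe against control, 2 to 3 were called higher and 4 to 5 lower, with Celf2 at 0.52 and 0.54 without severe mice 1066 and 1079 and Mbnl2 at -0.53 without 1079. Depth limits only Mbnl3, with 8 to 14 counts in the uninduced mice.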
